A study of Mus musculus with 24 samples.

Results

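Nuclear cleavage and polyadenylation factors cut the nascent transcript at its 3′ end and prepare it for the addition of a poly(A) tail. Their genes were followed as a list of 10 symbols, *Cpsf1*, *Cpsf2*, *Cpsf3*, *Cpsf4*, *Cpsf6*, *Cpsf7*, *Cstf1*, *Cstf3*, *Nudt21* and *Pcf11*. Each symbol matched 1 Ensembl gene, out of 55471 annotated genes of which 21974 are protein-coding. The genes were taken by name and function, with no measured value in the rule, but with earlier results of these data known. All 10 passed the filter on low counts in the fits of the stages and of the m6A pull-down.

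RNA came from mice of the B6D2F1 strain, from 8-week-old superovulated females, and was profiled by SLIM-seq, a low-input method that sequences RNA pulled down with an antibody against N6-methyladenosine (m6A) beside the untreated input RNA. Oocytes at meiotic metaphase II (MII, 14 to 16 h after the ovulation hormone hCG), late 1-cell embryos (L1C, 27 to 29 h) and late 2-cell embryos (L2C, 48 to 50 h) each gave 3 IP and 3 input libraries. Another 6 libraries came from L2C embryos injected as zygotes with mRNA of Cas13d, an RNA-cutting CRISPR enzyme. The 3 knockdown libraries (KD) also received crRNAs against *Ythdc1*, a nuclear reader of m6A, whereas the 3 control libraries (NC) received Cas13d mRNA alone, so that no control carried a crRNA. Every group thus shares the strain and the hormone treatment, and both injected groups share Cas13d and injection in medium with cytochalasin B. By the study's methods, L1C and L2C embryos were cultured from zygotes collected 14 to 16 h after hCG. MII oocytes were taken directly from the oviducts, so stage and culture cannot be told apart in comparisons with MII. The sources used here do not give the number of oocytes or embryos per library or say whether libraries of a group came from separate collections, so p-values measure only the spread between these libraries.

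The machinery is built from modules. CPSF reads the AAUAAA signal and holds the endonuclease, CFIm binds UGUA elements upstream of the cut, CstF binds the GU-rich stretch downstream, and CFIIm links the cut to the release of RNA polymerase II. The growing oocyte is known for large stores of mRNA with short tails. Some of these mRNAs are lengthened in the cytoplasm by a machinery that shares CPSF subunits. The nuclear machinery is needed again for the embryo's own transcription, whose major wave comes at the 2-cell stage.

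The SLIM-seq libraries held 11107421 to 39739950 estimated counts. The knockdown libraries held 8696476 to 14500548 counts over the whole annotation, for the 5 libraries with a complete file, and 3276715 to 5463868 counts in the merged table, which covers all 6 libraries but only 25739 genes. Summed levels of 10 oocyte markers went from 8903 to 9801 CPM (reads of a gene scaled to a common library size) in MII input to 5835 to 6368 in L1C and 2088 to 2219 in L2C. Between MII and L2C input 8 of the 10 were lower in every library, *Zp3* overlapped and *Dppa3* was higher. The 6 markers of the 2-cell stage found in the files, of 7 listed, summed to 6.14 to 7.44, 58.3 to 84.1 and 303 to 436 CPM in the same order. Of 8 cumulus cell markers, *Ptx3* was at 0 in every input library, and a rise of the sum to 267 to 283 CPM in L2C input lay almost wholly in *Amhr2* (262 to 277 CPM). Of 4 sperm markers, *Prm1* was at 0 in MII and L1C input and at 56.8 to 76.2 CPM in L2C input, whereas *Prm2* was at 2.10 to 2.74, 2.06 to 2.46 and 0.611 to 1.11 CPM in the same order and *Tnp1* and *Tnp2* reached at most 0.2004 CPM in any input library. The 4 Y-linked genes listed summed to 0.14 to 0.54, 1.46 to 1.7 and 23.3 to 38.2 CPM. The study's methods take IP and input RNA from the same batches, but the sources used here do not tie a batch to a replicate number. *Ythdc1* measured 1080, 1098 and 994 CPM in the NC libraries and 523, 541 and 519 CPM in the KD libraries of the merged table, a 2.01-fold lower level (adjusted p = 1.34e-10).

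The first question was how the RNA of the 10 factors changes from oocyte to 2-cell embryo. Between L1C and L2C, 7 of the 10 rose and 2 fell, with *Cpsf4* (17.0-fold), *Cpsf1* (6.91-fold) and *Cstf1* (6.46-fold) at the top. Before that, from MII to L1C, 2 rose and 4 fell, with *Cstf1* and *Cpsf1* falling most. *Cpsf2* fell at each step. Levels here are CPM scaled by trimmed means (TMM) over the 9 input libraries, differences are log2 differences with their standard error (SE), and a change was called at an adjusted p under 0.05 in edgeR's quasi-likelihood test, adjusted over the 19903 genes tested. Shares of genes called are given over the protein-coding genes among those tested, 15279 here. The labels give the molecule as polyA RNA, so a change in RNA amount and a change in poly(A) tail cannot be told apart here, nor can less RNA per cell and fewer cells contributing RNA.

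Of the protein-coding genes tested, 31.5% were called higher and 27.6% lower in L1C than in MII, against 2 and 4 of the 10 factors. From L1C to L2C these shares were 44.2% higher and 39.3% lower, against 7 and 2 of the 10. Over the whole interval from MII to L2C they were 46.8% higher and 38.3% lower, again against 7 and 2 of the 10. The median log2 difference of the 10 factors was -0.28, 1.78 and 1.22 for the 3 comparisons in that order, and that of the protein-coding genes tested was 0.09, 0.15 and 0.29. The 3 comparisons share libraries and are not independent of each other. Scaling by library size alone in place of TMM moved the median of protein-coding genes from MII to L2C up by 0.15 (log2), and DESeq2's size factors moved that from L1C to L2C up by 0.13. Neither altered the number of factors called higher or lower.

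**Figure D1:**
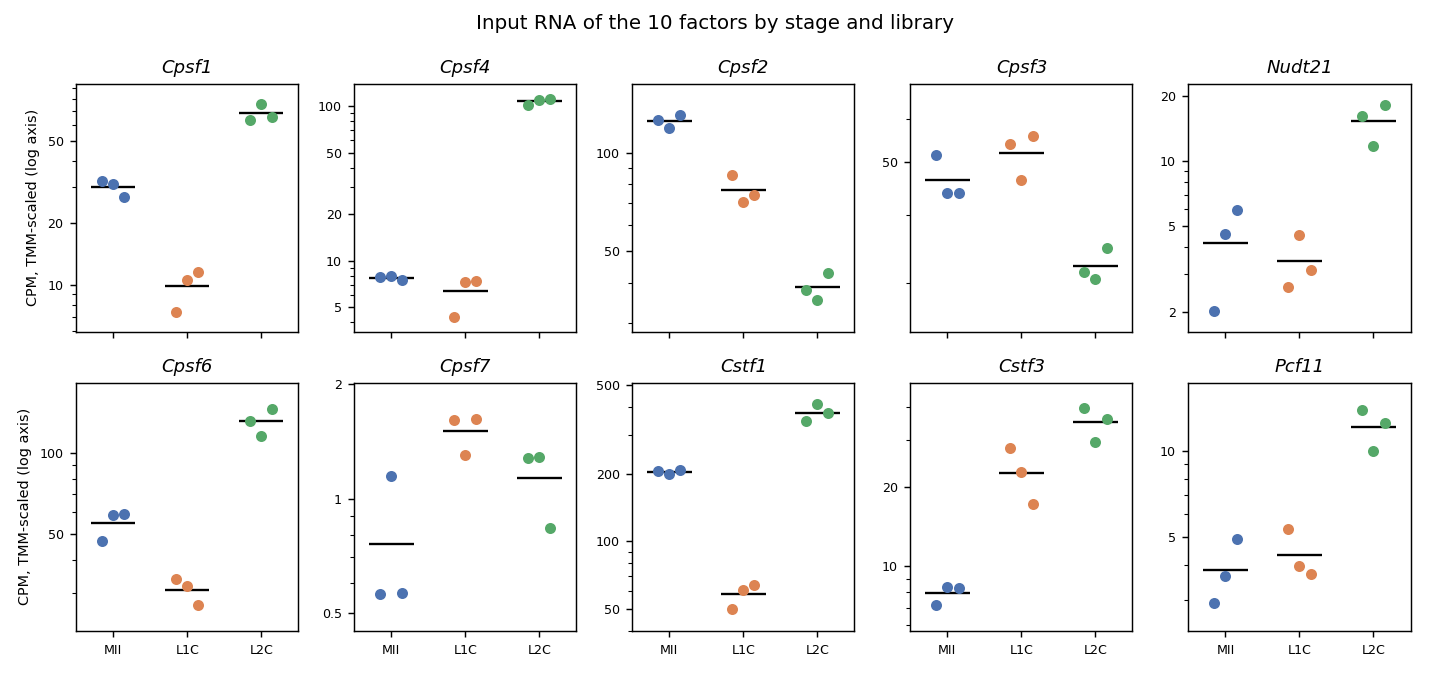
Input RNA of the 10 factors in each library, as TMM-scaled CPM on a log axis that differs between panels. Points are libraries (3 per stage), lines are group means. The points of *Cpsf1*, *Cstf1* and *Cpsf6* dip at L1C and rise above the MII level at L2C, *Cpsf4* rises only at L2C and *Cpsf2* steps down.

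*Cpsf1* (chr15:76595803-76607591, minus strand, GRCm38, like all positions here) encodes the large scaffold subunit of CPSF. Its input level was 31.8, 31.0 and 26.8 CPM in the 3 MII libraries, 7.40, 10.6 and 11.6 in L1C and 63.0, 76.0 and 65.1 in L2C. The stages did not overlap, with the lowest values in L1C and the highest in L2C. The level fell by 1.603 on the log2 scale from MII to L1C (SE 0.17, adjusted p = 3.38e-06) and rose by 2.79 from L1C to L2C (SE 0.18, adjusted p = 1.97e-09), which left L2C at 2.27-fold the MII level.

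*Cpsf4* (chr5:145167213-145182041, plus strand) encodes the zinc finger subunit that contacts the AAUAAA signal. It measured 7.84, 7.99 and 7.495 CPM in MII, 4.36, 7.29 and 7.39 in L1C and 102, 109 and 111 in L2C. The L2C libraries stood more than 10-fold above every earlier library. The rise from L1C to L2C was 4.09 on the log2 scale (SE 0.19, adjusted p = 7.97e-11), whereas the difference of -0.30 between L1C and MII, whose libraries did not overlap either, was not called (adjusted p = 0.177, 95% interval -0.70 to 0.09).

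*Cpsf2* and *Cpsf3* encode the pair of related proteins at the catalytic centre, of which the product of *Cpsf3* cuts the RNA and that of *Cpsf2* is the inactive partner. *Cpsf2* (chr12:101975988-102006424, plus strand) measured 126, 119 and 130.3 CPM in MII, 85.3, 70.6 and 74.1 in L1C and 37.9, 35.4 and 42.7 in L2C. It stepped down at each stage without overlap, by 0.71 (SE 0.12, adjusted p = 0.000237) and then by 0.99 on the log2 scale (SE 0.12, adjusted p = 3.64e-06). L2C stood 3.23-fold below MII. Exons of *Cpsf2* share 147 bases, and its span 1081, with *Ndufb1-ps* on the opposite strand.

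*Cpsf3* (chr12:21285391-21315056, plus strand) measured 51.6, 44.0 and 43.8 CPM in MII, 54.0, 46.3 and 55.8 in L1C and 31.4, 30.5 and 34.8 in L2C. MII and L1C overlapped and their difference of 0.16 was not called (adjusted p = 0.306), while every L2C library lay below every earlier one. From L1C to L2C the level fell by 0.69 on the log2 scale (SE 0.13, adjusted p = 0.00022). Exons of *Cpsf3* share 196 bases, and its span 894, with *Itgb1bp1* on the opposite strand, which had a mean of 3079 counts, and the strand setting of the counting is not given in the sources used here. Whether reads of both genes in these bases were separated is therefore not known.

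The CFIm module pairs *Nudt21*, whose product binds UGUA, with *Cpsf6* or *Cpsf7*, whose products carry the arginine and serine rich domain. *Cpsf6* (chr10:117344673-117380015, minus strand) measured 47.0, 58.7 and 59.1 CPM in MII, 33.7, 31.8 and 27.1 in L1C and 132, 116 and 146 in L2C. It dipped and rose without overlap of stages, by -0.83 (SE 0.14, adjusted p = 0.000218) and 2.08 (SE 0.15, adjusted p = 5.61e-09) on the log2 scale.

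*Nudt21* (chr8:94015496-94037031, minus strand) measured 2.03, 4.59 and 5.92 CPM in MII, 2.62, 4.55 and 3.13 in L1C and 16.2, 11.7 and 18.3 in L2C. MII and L1C overlapped and their difference of -0.27 was not called (adjusted p = 0.522, 95% interval -0.998 to 0.46). The rise of 2.17 from L1C to L2C was called (SE 0.33, adjusted p = 2.46e-05).

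*Cpsf7* (chr19:10525266-10547653, plus strand) was near the floor of the data, with 10 to 38 counts per input library. It measured 0.560, 1.149 and 0.564 CPM in MII, 1.61, 1.3 and 1.62 in L1C and 1.28, 1.29 and 0.835 in L2C. The difference of 0.99 from MII to L1C was just past the threshold (SE 0.38, adjusted p = 0.0399). It was lost in 8 of 16 alternatives (log2 differences 0.80 to 1.04, adjusted p = 0.0541 to 0.135), including the fit with the replicate number as a block (adjusted p = 0.0557) and the removal of MII replicate 1 or 3, L1C replicate 1 or 3, or L2C replicate 1. From MII to L2C its difference of 0.57 was called only when MII replicate 2 was left out (0.98). On the opposite strand *Tmem216* overlaps 13789 of the 22388 bases of the *Cpsf7* gene span and *Sdhaf2* overlaps 877, of which 169 and 94 are exonic in both genes. The targets of the SLIM-seq counts include introns, and the more abundant of these neighbours averaged 736.5 counts per SLIM-seq library, so that the level of *Cpsf7* is uncertain.

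*Cstf1* (chr2:172370681-172382448, plus strand) encodes a WD repeat subunit of CstF. Its CPM were 207, 201 and 208 in MII, 49.9, 60.6 and 64.1 in L1C and 343, 409 and 375 in L2C. All L1C libraries lay more than 3-fold below all MII libraries and all L2C libraries above both. The fall was 1.82 on the log2 scale (SE 0.13, adjusted p = 4.59e-08) and the rise 2.69 (SE 0.13, adjusted p = 1.29e-10).

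*Cstf3* (chr2:104590523-104665429, plus strand), the scaffold that joins the CstF subunits, went the other way from MII to L1C. It measured 7.15, 8.39 and 8.28 CPM in MII, 27.9, 22.6 and 17.1 in L1C and 39.4, 29.5 and 36.0 in L2C. The stages did not overlap and rose in order, by 1.51 (SE 0.19, adjusted p = 1.74e-05) and 0.63 (SE 0.18, adjusted p = 0.00537) on the log2 scale. No exon is shared with its neighbour *Tcp11l1*, but 8142 bases of the gene span are.

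*Pcf11* (chr7:92643543-92669934, minus strand), the CFIIm subunit that binds the tail of RNA polymerase II and acts in termination, measured 2.93, 3.65 and 4.90 CPM in MII, 5.33, 3.95 and 3.72 in L1C and 13.9, 10.0 and 12.5 in L2C. MII and L1C overlapped (0.19, adjusted p = 0.52). L2C was higher than L1C by 1.49 on the log2 scale (SE 0.23, adjusted p = 3.15e-05). Exons of *Pcf11* share 136 bases, and its span 3900, with *Gm26944*, and both share 241 with *6430511E19Rik*, both on the opposite strand.

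Levels can be set side by side between genes only per length, so the CPM of each library total was divided by the exonic length in kilobases. In MII the order was *Cstf1* (55.9 ± 1.09 CPM per kb, SD, n = 3), *Cpsf2* (20.9), *Cpsf3* (8.40), *Cpsf1* (5.06), *Cpsf6* (4.99), *Cpsf4* (2.06), *Cstf3* (1.29), *Nudt21* (0.746), *Pcf11* (0.467) and *Cpsf7* (0.111). Libraries of *Cpsf1* and *Cpsf6*, and of *Nudt21* and *Pcf11*, overlapped, and the other neighbours did not. In L1C the first 3 were the same genes, with *Cstf1* at 16.4 ± 2.11 and *Cpsf2* at 13.2 ± 1.24 CPM per kb now overlapping. *Cstf3* stood at place 4, overlapping with *Cpsf6* at place 5, and was at place 7 by the deposited TPM. *Cpsf4* and *Cpsf1*, and *Nudt21* and *Pcf11*, overlapped as well.

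In L2C *Cstf1* led with 113 ± 8.70 CPM per kb, followed by *Cpsf4* (31.5 ± 0.823), *Cpsf6* (13.2), *Cpsf1* (12.7), *Cpsf2* (7.12), *Cpsf3* (6.44), *Cstf3* (6.28), *Nudt21* (3.04), *Pcf11* (1.64) and *Cpsf7* (0.187). *Cpsf4* thus stood at place 6 in MII and L1C and at place 2 in L2C. *Cpsf6* and *Cpsf1* overlapped here, as did *Cpsf2*, *Cpsf3* and *Cstf3* among themselves. Within CFIm, *Cpsf6* was above *Cpsf7* at every stage, and within the catalytic pair *Cpsf2* was above *Cpsf3* in every MII and L1C library. By the deposited TPM, which use longer target lengths that include introns, 5, 5 and 6 of the 10 genes kept their place in MII, L1C and L2C, and *Cstf1* and *Cpsf7* stayed first and last.

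For each factor the protein-coding gene with the most similar profile was found by Pearson's r of log2(CPM + 1) over the 9 input libraries, among 15269 genes compared. The partner was *Sfn* for *Cpsf4* (r = 0.999), *Pld6* for *Cpsf1* (0.997), *Ide* for *Cpsf2* (0.998), *Rtl4* for *Cpsf3* (0.986), *Gtf2a1* for *Cpsf6* (0.994), *Rps21* for *Nudt21* (0.990), *P4hb* for *Cstf1* (0.998), *Ywhaq* for *Cstf3* (0.996), *2010005H15Rik* for *Pcf11* (0.993) and *Mapkapk2* for *Cpsf7* (0.930). Such values are common in data with 3 stages. For *Cpsf4*, 3246 genes had an r over 0.95, for *Cstf1* 353, and for *Cpsf7* 0.

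Another 12 genes of 3′ end processing were listed by function. Of these, 3 were higher and 6 lower in L1C than in MII. In L2C, 9 were higher and 2 lower than in L1C, and 7 were higher and 3 lower than in MII, against the shares of protein-coding genes given above. The largest rise from L1C to L2C was that of *Pabpn1*, the nuclear poly(A) binding protein, from 2.66, 2.83 and 4.15 CPM to 516, 647 and 575 CPM (log2 difference 7.51, SE 0.20, adjusted p = 8.86e-13). *Gm20521*, which overlaps *Pabpn1* on the same strand, averaged 666.5 counts per SLIM-seq library. Reads may have been divided between both genes, so the levels and IP ratios of *Pabpn1* are uncertain. *Rbbp6*, which activates the endonuclease, rose from 1.73, 1.35 and 1.13 to 104, 85.6 and 98.4 CPM (6.08, adjusted p = 2.82e-12). *Clp1*, the partner of *Pcf11* in CFIIm, rose at both steps, by 3.51 (adjusted p = 1.65e-08) and 4.90 (adjusted p = 1.04e-11).

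Several partners of the 10 factors moved in opposite directions. The RNA-binding CstF subunit has an X-linked gene, *Cstf2*, and an intronless copy, *Cstf2t*. *Cstf2* measured 23.3, 26.4 and 26.5 CPM in MII and 14.2, 18.7 and 15.2 in L2C (-0.66, adjusted p = 0.000991), while *Cstf2t* went from 9.91, 9.99 and 9.47 to 235, 249 and 239 CPM (4.62, adjusted p = 1.1e-12). Reads shared by the related copies can be divided between them by the counting. *Cstf2t* also overlaps *Prkg1* on the opposite strand, which averaged 1547 counts per SLIM-seq library. The values of *Cstf2* and *Cstf2t* are therefore uncertain.

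Among the poly(A) polymerases, *Papola* measured 67.1 ± 4.94, 50.0 ± 5.31 and 227 ± 25.7 CPM (SD, n = 3) in MII, L1C and L2C. *Papolg* peaked in L1C, with 13.6 ± 2.07, 64.8 ± 14.1 and 7.60 ± 2.09 CPM (2.25, adjusted p = 1.02e-06, then -3.08, adjusted p = 8.25e-09). *Papolb* had no count in any MII input library and 21 to 77 counts in L2C. *Fip1l1*, a CPSF subunit that recruits poly(A) polymerase, fell from 331, 326 and 337 CPM in L1C to 78.4, 77.1 and 80.0 in L2C (-2.08, adjusted p = 3.22e-10). *Cpsf4l*, the paralog of *Cpsf4*, rose from 13.4 to 38.1 CPM at L1C (1.51, adjusted p = 4.89e-06) and fell to 11.5 CPM at L2C (-1.73, adjusted p = 2.32e-07), when *Cpsf4* itself rose.

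**Figure D2:**
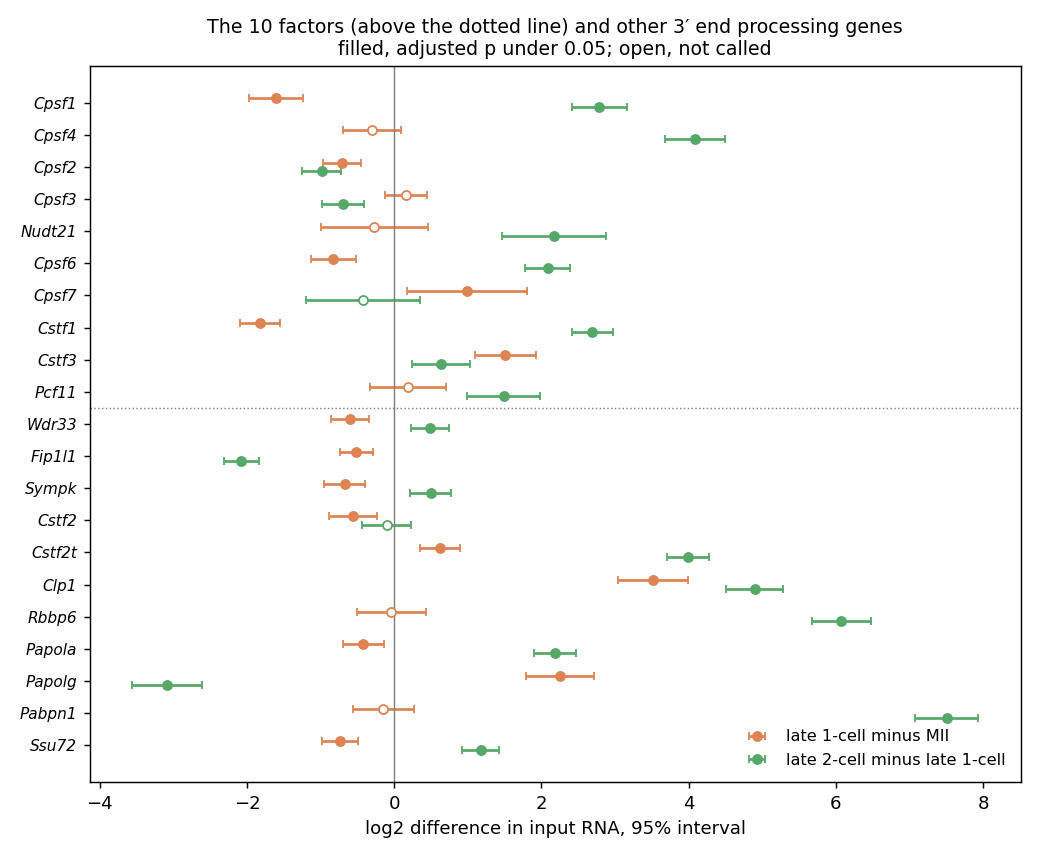
Log2 differences in input RNA from MII to L1C (orange) and from L1C to L2C (green), with 95% intervals. The 10 factors stand above the dotted line, 11 other genes of 3′ end processing below it (*Papolb*, with no count in MII, is not drawn). Filled points were called. *Pabpn1*, *Rbbp6* and *Clp1* reach 7.51, 6.08 and 4.90 from L1C to L2C, beyond the 4.09 of *Cpsf4*.

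The m6A antibody selects RNA that carries the mark, so the ratio of IP to input levels was read as an enrichment of each transcript relative to the other transcripts of its library. *Pcf11* was enriched at all 3 stages, by 1.73-fold, 1.75-fold and 1.59-fold, and *Cpsf2* and *Cpsf3* were depleted at all 3. *Cpsf4* was the most enriched of the 10 in MII (2.78-fold) and L1C (2.10-fold) and was 1.36-fold lower in IP than in input at L2C. Levels of this comparison are CPM scaled by TMM over all 18 SLIM-seq libraries, so that an input value differs slightly from the one above, and calls are those of edgeR, adjusted over 21950 genes tested, of which 16163 code for protein.

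Of the protein-coding genes tested, 18.6% were called higher and 25.6% lower in IP than in input at MII, against 3 and 3 of the 10 factors. The L1C libraries gave 16.0% and 22.4%, against 2 and 4 of the 10. In the L2C libraries 21.6% and 26.6% were called, against 2 and 5 of the 10. The direction of many calls depends on the scaling. With library size alone the median of protein-coding genes moved up by 0.16, 0.29 and 0.25 (log2) at the 3 stages. The share of called protein-coding genes that were higher in IP then went from 42.2% to 58.0%, from 41.6% to 67.2% and from 44.8% to 63.3%. Under that scaling 3 factors were higher and 3 lower at MII, and 2 higher and 3 lower at L2C. The 2 factors higher at L1C stayed called, whereas none of the 4 lower ones did, with -0.30 for *Cpsf6* (adjusted p = 0.0716), -0.30 for *Cpsf3* (0.063), -0.11 for *Cpsf2* (0.473) and -0.23 for *Cpsf1* (0.303).

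**Figure D3:**
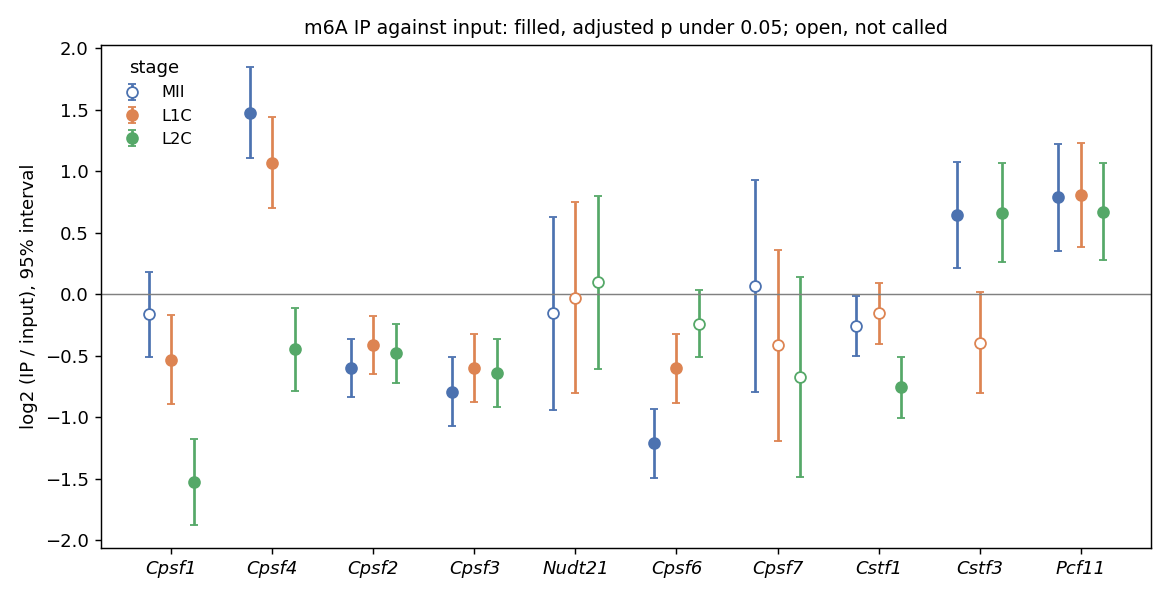
Log2 ratio of m6A IP to input for the 10 factors at MII, L1C and L2C, with 95% intervals, from 3 IP and 3 input libraries per stage. Filled points were called at an adjusted p under 0.05. *Cpsf4* goes from 1.47 to -0.45, *Pcf11* stays between 0.67 and 0.81, and *Cpsf1* reaches -1.53 at L2C.

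The strongest enrichment was that of *Cpsf4* at MII. Its 3 input libraries measured 9.60, 9.59 and 8.92 CPM and its IP libraries 25.3, 27.1 and 25.8. At L1C the input was 4.99, 8.28 and 8.30 and the IP 13.0, 12.8 and 19.2 CPM. IP and input were fully apart at both stages, with log2 ratios of 1.47 (SE 0.18, adjusted p = 1.51e-06) and 1.07 (SE 0.18, adjusted p = 9.69e-05).

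At L2C the order was turned, with 98.4, 103 and 108 CPM of *Cpsf4* in input and 79.7, 71.5 and 75.5 in IP. The groups did not overlap, and the ratio of -0.45 was called (SE 0.16, adjusted p = 0.0303). That call was lost with library size scaling (-0.19) and without replicate 2 or 3 of the L2C input or of the L2C IP. Over all 26 alternatives the ratio ranged from -0.49 to -0.19 (adjusted p = 0.00357 to 0.32). The change of *Cpsf4* enrichment was -1.52 from L1C to L2C (SE 0.24, adjusted p = 0.000717) and -1.92 from MII to L2C (SE 0.24, adjusted p = 1.34e-05), and both differences were called in all 25 alternatives run for them.

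*Cpsf1* moved in the same direction. In MII its input libraries (39.0, 37.1 and 31.8 CPM) and IP libraries (31.7, 34.7 and 30.1) overlapped and the ratio of -0.16 was not called (adjusted p = 0.485). At L1C the input was 8.48, 12.0 and 13.0 and the IP 8.49, 6.34 and 8.31 CPM, so that the groups still overlapped by 1 library, at a called ratio of -0.53 (SE 0.17, adjusted p = 0.0235). The call at L1C was lost in 7 alternatives, among them library size scaling, the replicate block (-0.53, adjusted p = 0.0551) and the removal of L1C input replicate 2 or 3 or L1C IP replicate 2 (ratios -0.54 to -0.23 over the 7, against -0.70 to -0.23 and adjusted p = 0.00381 to 0.303 over all 26).

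In L2C the *Cpsf1* input measured 61.0, 71.98 and 63.0 CPM and the IP 27.01, 19.3 and 21.4. All IP libraries lay far below the lowest input library, at a ratio of -1.53 (SE 0.17, adjusted p = 7.48e-07), the lowest of the 10 factors at any stage. The enrichment differed from MII by -1.36 (SE 0.23, adjusted p = 0.000331) and from L1C by -0.99 (SE 0.24, adjusted p = 0.0131).

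*Cpsf2* and *Cpsf3* were lower in IP at each stage. *Cpsf2* had inputs of 154, 143 and 155 CPM and IP levels of 111, 91.2 and 97.0 in MII, and its ratios were -0.60, -0.41 and -0.48 at MII, L1C and L2C (adjusted p = 0.000266, 0.00769 and 0.00221). *Cpsf3* had inputs of 63.1, 52.7 and 52.2 CPM and IP levels of 33.7, 35.4 and 27.98 in MII, and its ratios were -0.79, -0.60 and -0.64 (adjusted p = 8.71e-05, 0.00145 and 0.000717). Their IP and input libraries were apart at all 3 stages. With library size scaling *Cpsf2* lost the calls at L1C and L2C and *Cpsf3* the call at L1C.

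In CFIm, *Cpsf6* was depleted in MII, with 57.6, 70.4 and 70.3 CPM in input and 29.6, 28.4 and 27.6 in IP (-1.21, SE 0.13, adjusted p = 6.58e-07). The ratio was -0.60 in L1C (input 38.6, 36.2 and 30.5, IP 19.7, 23.2 and 26.4 CPM, adjusted p = 0.00165) and -0.24 in L2C (input 127, 109.7 and 141, IP 101, 113 and 107 CPM, adjusted p = 0.143), where the groups overlapped. The difference between L2C and MII of 0.97 was called (SE 0.19, adjusted p = 0.00098), whereas the single steps of 0.61 from MII to L1C and 0.36 from L1C to L2C were not (adjusted p = 0.0566 and 0.245). *Cpsf6* is also known as a protein partner of Ythdc1.

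*Nudt21* and *Cpsf7* passed the test at no stage. The ratios of *Nudt21* were -0.15, -0.03 and 0.10, with 95% intervals as wide as -0.94 to 0.63 in MII. Those of *Cpsf7* were 0.07, -0.41 and -0.67, with 10 to 48 counts per library behind them and an interval of -1.49 to 0.14 in L2C. The intervals of both genes are wide beside the ratios of the other factors.

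*Cstf1* input measured 253, 241 and 247 CPM and IP 209.7, 231 and 179 in MII. At L2C they were 332, 387 and 363 against 223, 189.6 and 229 CPM. The libraries were apart at both stages, and overlapped in L1C (-0.16, adjusted p = 0.339). The L2C ratio was called (-0.76, SE 0.12, adjusted p = 4.35e-05), and that of MII was not (-0.26, adjusted p = 0.0938) except without MII IP replicate 2 (-0.35). The change of enrichment was -0.60 from L1C to L2C (adjusted p = 0.0297) and -0.50 from MII to L2C (adjusted p = 0.0394), and neither was stable. The first was lost in 6 of 25 alternatives (adjusted p = 0.0565 to 0.0928), among them the replicate block (-0.61, adjusted p = 0.0928) and the removal of L1C input replicate 1, L1C IP replicate 1, L2C input replicate 2 or 3 or L2C IP replicate 2. The second was lost in 10 (adjusted p = 0.056 to 0.106), among them the replicate block (-0.49, adjusted p = 0.106) and the removal of any MII input, MII IP replicate 1 or 2, L2C input replicate 2 or 3 or L2C IP replicate 2.

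*Cstf3* was higher in IP in MII and L2C and not in L1C. The input was 8.75, 10.1 and 9.86 CPM and the IP 16.5, 10.4 and 17.8 in MII, where the lowest IP library lay just above the highest input (0.64, SE 0.21, adjusted p = 0.0183). In L1C the input was 31.9, 25.7 and 19.3 and the IP 19.8, 20.6 and 18.2 CPM (-0.39, adjusted p = 0.132), and in L2C 38.1, 27.9 and 34.9 against 46.5, 61.3 and 52.2 CPM (0.66, SE 0.19, adjusted p = 0.00899). The call in MII was lost without MII input replicate 1 or MII IP replicate 1 or 3 (0.50 to 0.58), and that in L2C without L2C input replicate 2 (0.54). Without L1C input replicate 3 the L1C ratio was called (-0.56). The interaction test gave -1.03 from MII to L1C (adjusted p = 0.0307) and 1.05 from L1C to L2C (adjusted p = 0.0204). The first was lost in 10 of 25 alternatives and the second in 5, with adjusted p = 0.0508 to 0.0882 and 0.0534 to 0.065 in those. Both were lost with the replicate block (-0.97, adjusted p = 0.0882, and 1.03, adjusted p = 0.0587). The libraries whose removal ended the first call were any MII input, MII IP replicate 1 or 3, L1C input replicate 1 or 2 and L1C IP replicate 2 or 3, and for the second they were L1C input replicate 1, L1C IP replicate 3 and L2C input replicate 2.

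*Pcf11* had inputs of 3.59, 4.37 and 5.83 CPM and IP levels of 8.11, 7.58 and 8.01 in MII. In L1C the values were 6.10, 4.49 and 4.18 against 8.14, 8.68 and 9.08, and in L2C 13.5, 9.52 and 12.1 against 15.3, 21.2 and 19.7 CPM. IP libraries were above all input libraries at each stage, with ratios of 0.79 (SE 0.21, adjusted p = 0.00484), 0.81 (SE 0.20, adjusted p = 0.00392) and 0.67 (SE 0.19, adjusted p = 0.0076). Without L2C input replicate 2 the L2C ratio was 0.53 and missed the threshold (adjusted p = 0.0501). The L2C IP replicate 2 was the shallowest SLIM-seq library.

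Between stages, 3.81% of the protein-coding genes tested gained and 5.03% lost enrichment from MII to L1C by edgeR's interaction test. Among the factors *Cstf3* lost, and none gained at that threshold, although *Cpsf6* had an unadjusted p of 0.00445 (0.61, adjusted p = 0.0566) and was called in 6 of 25 alternatives, DESeq2 and library size scaling among them, and without MII input replicate 1, L1C input replicate 1, L1C IP replicate 1 or L2C input replicate 2. From L1C to L2C the shares were 6.09% and 5.41%, against 1 factor higher (*Cstf3*) and 3 lower (*Cpsf1*, *Cpsf4* and *Cstf1*). From MII to L2C they were 13.5% and 10.9%, against 1 higher (*Cpsf6*) and the same 3 lower. Which direction held more protein-coding genes turned with the scaling. From L1C to L2C the 984 higher and 874 lower became 872 and 1080 with library size scaling and 865 and 1121 with DESeq2's size factors, and from MII to L2C the 2174 and 1768 became 1939 and 2122 with DESeq2's size factors. The factors called numbered 1 higher and 3 lower in both intervals under both scalings. With the replicate number as a block they numbered 0 higher and 2 lower from L1C to L2C, and 1 and 2 from MII to L2C. In the list of 12 other processing genes, 1 gained (*Cstf2*, 1.20) and 4 lost enrichment from MII to L2C, namely *Sympk* (-1.54), *Pabpn1* (-1.40), *Papolg* (-1.31) and *Cstf2t* (-1.21). Within stages, the IP held 4 of these 12 higher and 2 lower in MII, and 3 higher and 4 lower in both L1C and L2C. Shares of protein-coding genes were 18.6% higher and 25.6% lower in MII, 16.0% and 22.4% in L1C, and 21.6% and 26.6% in L2C. *Pabpn1* and *Rbbp6* were higher and *Cstf2* and *Fip1l1* lower at all 3 stages.

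The m6A mark is placed most often at the pentamer GGACT, written in DNA letters, and often in the last exon near the end of the coding sequence. The pentamer was searched on the sense strand of 1 transcript per gene, the principal coding one of the GENCODE M21 annotation and among equals the longest, and was found in 90.6% of 16054 protein-coding genes tested. Per kilobase, *Cpsf4* held 3.61 pentamers, at percentile 99.1 of these genes, and *Cpsf6* held 0.153, at percentile 9.4, around a median of 1.05. The others held 2.29 (*Cpsf7*), 1.597 (*Nudt21*), 1.16 (*Cstf1*), 0.710 (*Cstf3*), 0.698 (*Cpsf2*), 0.500 (*Pcf11*), 0.443 (*Cpsf1*) and 0.400 (*Cpsf3*). The 5 windows below show the pentamer nearest the end of the coding sequence, with its window inside 1 exon, for the gene of highest density, the 2 others that were enriched at MII, the gene of lowest density and the one most depleted at L2C. They are 25 bases long, read 5′ to 3′ on the gene's strand with the pentamer in capitals.
Cpsf4: gctgactgtaGGACTggcaggactc
Cstf3: ctcttacccaGGACTcctgttttgc
Pcf11: tagcttcctgGGACTtaatgcagca
Cpsf6: tgtattttgaGGACTgcaactataa
Cpsf1: tatacagcgtGGACTtcatggtgga

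The *Cpsf4* window lies at chr5:145181282-145181306 in the 3′ UTR, 92 bases past the end of the coding sequence in exon 8 of 8, and the same window holds another copy of the pentamer in lower case. Those of *Cstf3* (chr2:104664954-104664978, exon 21 of 21) and *Pcf11* (chr7:92644120-92644144, exon 16 of 16) are also in the 3′ UTR, 49 and 432 bases past that end. The window of *Cpsf6* (chr10:117345213-117345237, exon 10 of 10) lies 4248 bases past it and is the only pentamer of that transcript. That of *Cpsf1* (chr15:76596800-76596824) is in the coding sequence, in exon 32 of 37 and 554 bases before its end. A match in the letters is not a measured m6A site, since the files give values per gene and not per position.

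Over the 10 factors, density and the log2 ratio of IP to input had a Pearson r of 0.65 in MII (Spearman rho 0.67), 0.595 in L1C (rho 0.70) and -0.08 in L2C (rho -0.01). The number of pentamers gave r of 0.288, 0.269 and 0.018 at the 3 stages (rho 0.509, 0.62 and -0.037), and the length of the longest exon gave -0.53, -0.2 and 0.204 (rho -0.345, -0.018 and 0.297), so that density had the highest r in MII and L1C of the 3 features compared. These are descriptions over 10 genes measured in the same libraries, and in MII and L1C the point of *Cpsf4* stands far from the rest. *Pcf11* and *Cstf3* were enriched in MII at densities below the median of those 16054 genes.

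**Figure D4:**
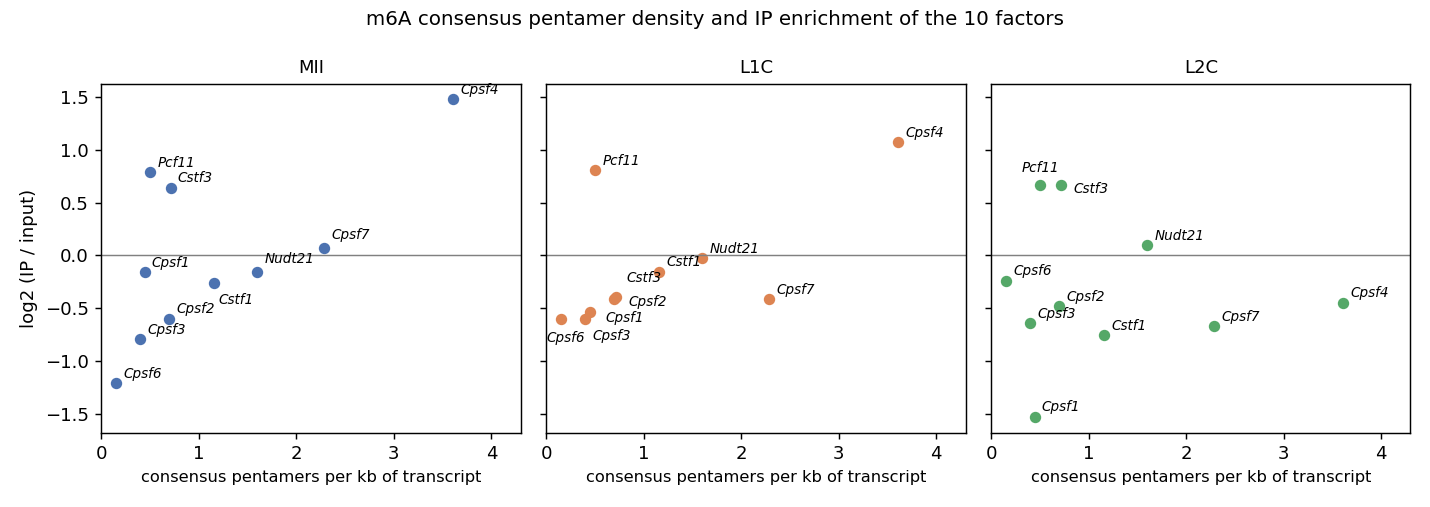
Number of GGACT pentamers per kilobase of transcript (x axis) against the log2 ratio of IP to input (y axis) for the 10 factors in MII, L1C and L2C. Each point is a gene. *Cpsf4*, at 3.61 per kb, is the highest point in MII (1.47) and L1C (1.07) and lies below 0 in L2C (-0.45).

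The last comparison asked what knockdown of *Ythdc1* does to the factors at L2C. The 3 crRNAs are shown because they define the KD group and because their fit to the factors' own transcripts could be checked. They are given 5′ to 3′ as DNA letters, with capitals for the bases that pair with the *Ythdc1* transcript, which are all 23 in each.
crRNA 1: CCTCATTCTCAGTGTTGTTGCCC
crRNA 2: AATTCATCATCCTGTTCTGGTAC
crRNA 3: CTCTCAGAACCATCTGGTGTAGG

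Their targets lie in exon 4 (chr5:86817026-86817048), exon 2 (chr5:86815667-86815689) and across the junction of exons 3 and 4 of *Ythdc1*, on the plus strand. Against the annotated protein-coding transcripts of the 10 factors, the best match of any crRNA, without gaps, still had 7 mismatches (crRNA 1 with *Cstf1*).

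After knockdown 7 of the 10 factors were higher, 1 was lower and 2 were not called. *Cstf3*, *Cpsf3*, *Cpsf7* and *Cstf1* rose by 1.92-, 1.82-, 1.74- and 1.71-fold, and *Cpsf2* fell by 1.37-fold. No member reached a log2 change of 1 in size, the limit that the study used beside an unadjusted p under 0.05, and which 33.5% of the protein-coding genes tested passed in the merged table and 34.9% over the whole annotation. *Cpsf4*, *Cstf1*, *Cstf3* and *Pcf11* stand in the merged table and were tested in all 6 libraries among 7433 genes, of which 5661 code for protein. The other 6 were tested over the whole annotation, among 17074 genes of which 12919 code for protein, without KD replicate 3, whose file ends early, so that 2 KD libraries stood against 3. CPM of both tables are on different scales.

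Of the protein-coding genes tested in the merged table, 35.6% were called higher and 36.5% lower, against 3 and 0 of the 4 factors it holds, by edgeR, and no factor was lower there at an unadjusted p under 0.05 or by DESeq2. Over the whole annotation the shares were 33.0% and 35.0%, against 7 and 1 of the 10. The median log2 difference of the 10 was 0.59 there, beside -0.03 for the protein-coding genes tested. Library size scaling moved the median of protein-coding genes in the merged table by -0.12 and left 6 factors higher and 1 lower over the whole annotation.

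*Cstf3* measured 146, 137 and 119 CPM in NC and 250.0, 265 and 261 in KD. *Cstf1* measured 159, 158 and 196 in NC and 278, 305 and 294 in KD. For both CstF genes the groups were far apart, with differences of 0.94 (SE 0.08, adjusted p = 1.59e-08) and 0.78 (SE 0.09, adjusted p = 2.66e-07). *Cstf2*, 1 of the genes of their RNA-binding partner, went the other way, from 34.8, 28.1 and 28.1 in NC to 17.0, 17.5 and 14.5 CPM in KD (-0.91, SE 0.16, adjusted p = 7.67e-05). Its intronless copy *Cstf2t*, tested over the whole annotation with 2 KD libraries, was called higher. *Cstf2t* measured 533, 503 and 439 CPM in NC and 607 and 539 in KD. On that scale *Cstf2* measured 13.4, 10.8 and 10.75 CPM in NC and 6.57 and 6.74 in KD.

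*Pcf11* rose from 118, 122.7 and 102 CPM in NC to 177, 142 and 170.0 in KD, without overlap (0.51, SE 0.10, adjusted p = 0.000154). Over the whole annotation without KD replicate 1, which left a lone KD library assumed to vary like the others, the difference was 0.32 and was not called (adjusted p = 0.0598). *Cpsf4* measured 81.1, 85.1 and 88.4 in NC and 88.0, 106 and 98.7 in KD, with overlap of 1 library. Its difference of 0.20 was not called (adjusted p = 0.0756, 95% interval -0.01 to 0.41), but was without KD replicate 1 (0.28) or NC replicate 3 (0.23). Over its 13 alternatives the adjusted p was 0.0304 to 0.489. *Cpsf4l*, its paralog, was 2.84-fold lower in KD (3.51 and 3.64 CPM against 7.52, 12.1 and 11.1, adjusted p = 9.22e-05).

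The catalytic pair split. *Cpsf3* measured 10.4, 9.19 and 6.43 CPM in NC and 16.4 and 15.7 in KD (0.87, SE 0.19, adjusted p = 0.000774). *Cpsf2* measured 53.0, 51.3 and 46.2 in NC and 36.5 and 37.0 in KD (-0.45, SE 0.11, adjusted p = 0.00145). The 2 KD libraries lay outside the NC range for both genes, on opposite sides. *Cpsf1*, the scaffold, overlapped between NC (17.8, 22.7 and 21.4) and KD (16.9 and 19.5 CPM) and was not called (-0.18, adjusted p = 0.284, 95% interval -0.49 to 0.13).

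All 3 genes of CFIm were higher. *Nudt21* measured 46.4, 39.1 and 39.3 CPM in NC and 67.7 and 66.4 in KD (0.68, SE 0.11, adjusted p = 3.66e-05). *Cpsf6*, whose product is the Ythdc1 partner named above, measured 105, 106 and 98.4 in NC and 124 and 122 in KD, a difference of 0.25 (SE 0.09, adjusted p = 0.0165), the smallest of those called. It was lost with library size scaling (0.18) and without KD replicate 1 (adjusted p = 0.00875 to 0.0915 over the 11 alternatives). *Cpsf7* measured 3.07, 3.67 and 2.99 in NC and 5.92 and 5.46 in KD, from 27 to 64 counts (0.80, SE 0.26, adjusted p = 0.0129), and was lost in DESeq2 and without KD replicate 1 (adjusted p = 0.0102 to 0.0623 over 11). The splicing factors *Srsf3* and *Srsf7*, also known as Ythdc1 partners, rose too, *Srsf3* by 1.28 (adjusted p = 7.23e-08) and *Srsf7* by 0.79 (adjusted p = 8.51e-07).

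**Figure D5:**
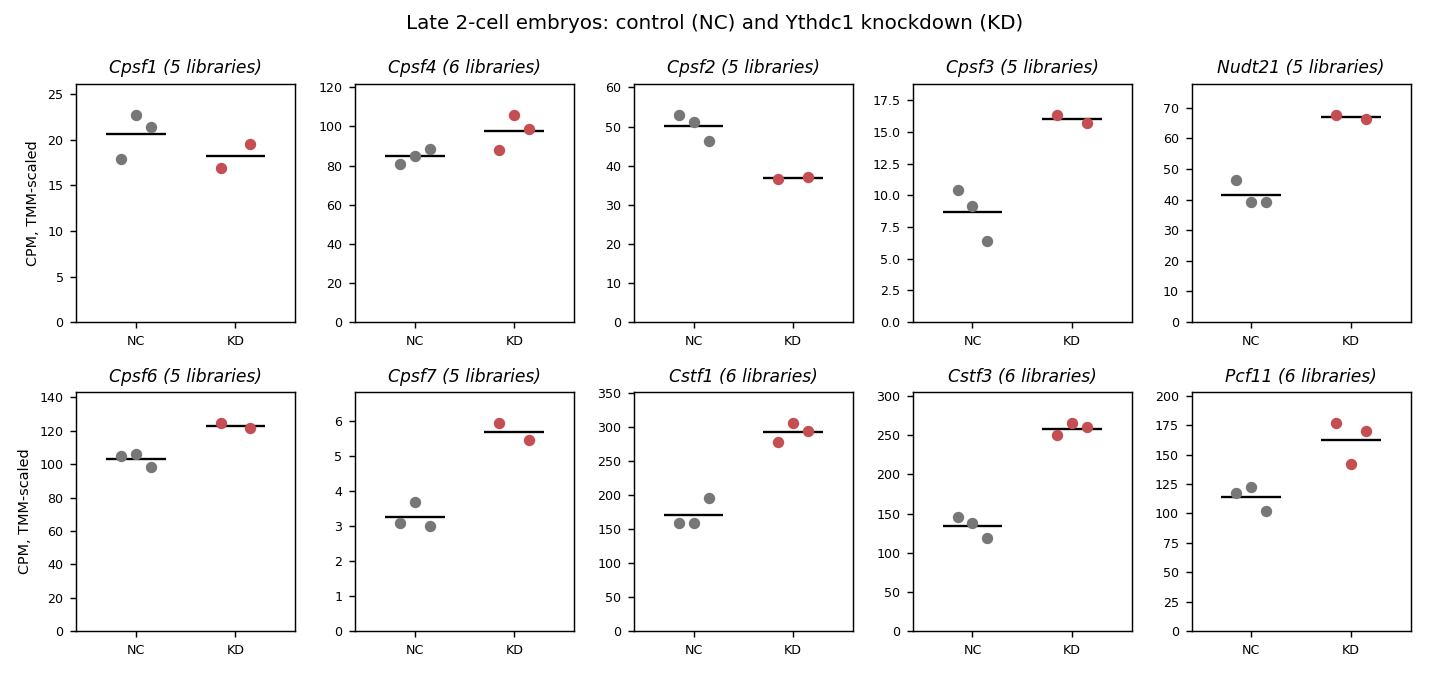
Levels of the 10 factors in control (NC) and *Ythdc1* knockdown (KD) L2C embryos, as TMM-scaled CPM on axes that start at 0. Points are libraries, lines are group means. Genes with 6 libraries come from the merged table, those with 5 from the whole annotation. *Cstf3*, *Cstf1*, *Pcf11*, *Cpsf3*, *Nudt21*, *Cpsf6* and *Cpsf7* lie higher in KD, *Cpsf2* lower.

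Of the 12 other processing genes, 5 were higher and 3 lower over the whole annotation, where 33.0% and 35.0% of the protein-coding genes tested were. *Papolg* rose most, from 11.1, 10.6 and 8.53 CPM to 26.4 and 23.0 (1.28, SE 0.15, adjusted p = 2.91e-06), and *Papola* and *Rbbp6* rose by 0.42 (adjusted p = 0.000158) and 0.37 (adjusted p = 0.000209). *Pabpn1* fell by 0.32 on the log2 scale, from 887, 899 and 934 to 740 and 716 CPM (adjusted p = 0.000663). Of the 6 that the merged table holds, 3 were higher (*Fip1l1*, *Papolb* and *Clp1*) and 2 lower (*Cstf2* and *Sympk*), where 35.6% and 36.5% of the protein-coding genes tested were. *Papolb* and *Clp1* were not called over the whole annotation (adjusted p = 0.0814 and 0.104).

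Markers of the 2-cell stage moved with the knockdown, over the whole annotation with 2 KD and 3 NC libraries. Their sum was 882 to 917 CPM in NC and 386 to 417 in KD, with 5 of 6 detected markers lower in every KD library, *Eif1a* higher (158 to 165 against 99.2 to 106 CPM) and none at 0. The sum of the oocyte list overlapped (14779 to 16413 CPM in NC, 15152 to 15588 in KD), but lay mostly in *Dppa3* (13050 to 14780 and 14340 to 14830 CPM). Of its 10 genes 8 were apart between the groups. *Zp1*, *Zp2*, *Gdf9*, *Bmp15*, *Nlrp5* and *Oosp1* were lower in KD, *Gdf9* at 41.4 to 45.65 against 104 to 115 CPM and *Oosp1* at 334.5 to 378.5 against 895 to 1000 CPM, and *Zp3* and *Ooep* were higher. The cumulus list summed to 28.8 to 35.3 CPM in NC and 36.4 to 40.02 in KD, with 4 of its 8 genes at 0 in every library of both groups. *Amhr2* was higher in KD (26.6 to 31.8 against 18.1 to 23.5 CPM) and *Star* lower (0.444 to 0.625 against 2.19 to 4.41 CPM). The sperm list summed to 2.18 to 4.18 CPM in NC and 0.0 to 0.1 in KD. The Y-linked list summed to 46.8 to 48.8 CPM in NC and 31.1 to 36.4 in KD, with all 4 genes lower in KD. The part of these marker shifts in the values of the 10 factors was not tested. Of the 7 factors that rose from L1C to L2C, 5 were higher in KD and 2 were not called (*Cpsf1* and *Cpsf4*), and of the 2 that fell, *Cpsf2* was lower and *Cpsf3* higher. Among all protein-coding genes tested over the whole annotation, 33.0% were higher and 35.0% lower in KD. The shares among those that rose or fell from L1C to L2C were not counted, so the counts of factors have no matching background.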

How the data were processed

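SLIM-seq libraries (3 IP and 3 input at each of 3 stages) and L2C libraries with or without *Ythdc1* knockdown (3 each) were taken as labelled. For SLIM-seq the authors deposited kallisto estimated counts and TPM per gene. Their gene targets include introns. The estimated counts were rounded here, and the TPM served only the order of levels. For the knockdown the authors deposited featureCounts counts per gene from HISAT2 alignments to GRCm38, after Trimmomatic. The file of KD replicate 3 ends after 25739 rows, as does the merged count table. Gene symbols came from GENCODE M21 (55230 of 55471 IDs matched), and printed windows were checked against the GRCm38 genome.

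Counts were tested with edgeR 4.0.16 (filterByExpr, TMM, quasi-likelihood F test, Benjamini-Hochberg over all genes tested, with background shares counted over the protein-coding ones) in R 4.3.3, with the 9 inputs, the 18 SLIM-seq libraries and the knockdown libraries each in a fit of their own. IP enrichment was compared between stages by interaction. Each SE was derived from the F value of the test, as the size of the log2 difference divided by the square root of F. The 95% intervals were built from these SE. The tests were tried on simulated counts. Alternatives were DESeq2 1.42.0, 2 other scalings, no filter, a block for replicate number, each library left out, fewer stages or genes, and the call rules of the study. Named genes were all 10 members, 12 other processing genes, *Xrn2*, paralogs, Ythdc1 partners and for each member the gene of highest r. Members, lists and tests were chosen with earlier results of these data known. The labels name a stranded kit, the study's methods a protocol based on Smart-seq2, and the strand setting of the counting is not given in the sources used here. PCR reads carry no molecular identifiers. No 2 libraries of 1 group agreed within sampling noise (lowest chi-square per degree of freedom 2.67).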

Additional observations from a re-analysis of the deposited data

Results flagged for a closer look

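The results here are changes of IP enrichment between stages that passed edgeR's interaction test, on the log2 scale. *Cpsf4* stood at -1.52 in L2C against L1C and at -1.92 against MII. *Cpsf1* changed by -0.99 from L1C to L2C and by -1.36 from MII to L2C. *Cstf1* changed by -0.60 and -0.50 over the same intervals. *Cstf3* changed by -1.03 from MII to L1C and by 1.05 from L1C to L2C, and *Cpsf6* by 0.97 from MII to L2C. With the replicate number as a block both *Cstf3* changes and both *Cstf1* changes missed the threshold (adjusted p = 0.0882 and 0.0587, and 0.0928 and 0.106), and those of *Cpsf4*, *Cpsf1* and *Cpsf6* listed here stayed past it (adjusted p = 0.000132 to 0.0459). No test for single outlying samples was run.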

How the results depend on the processing

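Under the alternatives 2017 values kept direction and side of the threshold, 87 lost a call, 11 gained one and 57 changed sign, none of which had been called. Where the construction does not show it, the cause was not tested. With library size scaling 2 factors were called at L1C, and the sign changed for *Nudt21* (0.077 at MII, 0.27 at L1C), *Cpsf1* (0.075 at MII), *Cstf1* (0.15 at L1C) and *Cpsf6* (0.017 at L2C). For *Nudt21* at L1C the ratio was also positive with DESeq2's size factors (0.0022) and protein-coding genes alone (0.0041). The study's rule, which takes only ratios above 0, left 3, 2 and 2 factors at MII, L1C and L2C, and its knockdown rule left 0 in both tables. For changed enrichment from MII to L1C, library size scaling and DESeq2 each called 2 factors and the replicate block called 0, and from L1C to L2C the block called 2. The sign of that change turned for *Pcf11* from MII to L1C with DESeq2's size factors (-0.0050), DESeq2 (-0.0099), protein-coding genes (-0.011) and the compared stages alone (-0.062), and for *Nudt21* with the replicate block (-0.065). From L1C to L2C it turned for *Nudt21* with the compared stages alone (-0.054). From MII to L2C it turned for *Cstf3* with DESeq2's size factors (-0.039), no filter (-0.030), DESeq2 (-0.042) and the compared stages alone (-0.14), and under the last also for *Cpsf3* (-0.021) and *Cpsf2* (-0.048). With deposited TPM 5, 5 and 6 factors kept their place in MII, L1C and L2C. With 1 library left out in turn, counts of called factors ranged over 4 to 7 for IP at L2C (4 without L2C input replicate 2), 0 to 2 and 2 to 4 for changed enrichment from MII to L1C and from L1C to L2C, and 5 to 8 for the knockdown over the whole annotation (5 without KD replicate 1), and 6 to 10 factors kept their place in L1C (6 without L1C input replicate 2). Left-out libraries moved *Nudt21* over -0.62 to 0.055 from MII to L1C, over -0.49 to 0.17, -0.61 to 0.24 and -0.081 to 0.28 for IP at MII, L1C and L2C, and over -0.46 to 0.46, -0.15 to 0.70 and -0.080 to 0.58 for changed enrichment from MII to L1C, L1C to L2C and MII to L2C. *Cpsf7* ranged over -0.11 to 0.49 for IP at MII. Changed enrichment ranged over -0.19 to 0.20 (MII to L1C) and -0.33 to 0.029 (MII to L2C) for *Pcf11*, over -0.10 to 0.049 for *Cpsf3*, -0.16 to 0.0077 for *Cpsf2* and -0.62 to 0.085 for *Cpsf7* from L1C to L2C, and over -0.19 to 0.16 for *Cstf3* from MII to L2C. IP and input RNA came from the same batches by the study's report, but no source used here ties the replicate numbers to them. The numbers were not taken as pairs, since deviations of samples that share a number correlated at -0.411 to 0.263 between IP and input, -0.218 to 0.45 between stages and -0.055 to 0.094 between KD and NC. Over the protein-coding genes the replicate block moved the calls of changed enrichment from 616 higher and 813 lower to 342 and 610 from MII to L1C, and from 984 and 874 to 541 and 498 from L1C to L2C. Library size scaling moved the share of higher calls from MII to L1C from 43.1% to 54.1%.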

Other observations

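Genes near the 10 factors on other branches of RNA 3′ end formation also moved. *Ints9* and *Ints11* encode the Integrator counterparts of the *Cpsf2* and *Cpsf3* pair, which process small nuclear RNA. Input *Ints9* measured 177, 151 and 140.0 CPM in MII, 33.0, 28.7 and 36.9 in L1C and 54.0, 65.6 and 61.9 in L2C. It fell by 2.25 on the log2 scale and then rose by 0.88 (edgeR adjusted p = 1.8e-08 and 3.61e-05), whereas *Cpsf2* fell at both steps. *Ints11* measured 11.4, 10.9 and 12.2 CPM in MII, 8.12, 8.49 and 11.6 in L1C and 72.8, 104 and 82.3 in L2C, a rise of 3.20 from L1C (adjusted p = 6.96e-10), whereas *Cpsf3* fell over that step. Both were lower after *Ythdc1* knockdown, with log2 changes of -0.53 for *Ints9* over the whole annotation with 2 KD libraries (adjusted p = 0.0011) and -0.62 for *Ints11* in the merged table (adjusted p = 0.00138). *Xrn2*, the nuclease that follows the cut and ends transcription, fell at both steps (-0.40 and -0.87, adjusted p = 0.0233 and 4.52e-05) and was higher by 0.28 in KD in the merged table (adjusted p = 0.00139).

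*Cpsf4l*, the paralog of *Cpsf4*, had log2 IP/input ratios of 1.19 in MII, 0.81 in L1C and 0.14 in L2C with a change of -1.05 from MII to L2C (adjusted p = 0.00102). *Srsf7* rose 9.77-fold in input from L1C to L2C (adjusted p = 6.25e-11), while *Srsf3* changed by -0.75 (adjusted p = 0.0037), with groups that overlapped.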
